A study of Mus musculus with 2 samples.

Results

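The CXC chemokines are small secreted proteins that guide leukocytes and some tissue cells, and 9 of their genes were followed here among the 33696 genes counted in dissociated mouse muscle. The members were Cxcl1, Cxcl2, Cxcl5, Cxcl9, Cxcl10, Cxcl12, Cxcl13, Cxcl14 and Cxcl16, taken by gene symbol and described across gated cell classes, cell states and both libraries. The material was 1 single-cell library with the label WT and 1 with the label KO, each from 10 tibialis anterior muscles pooled from 5 male mice of its strain, freshly digested and sorted for viable cells. The strain names, the age, the deleted allele and what drives its deletion are not given in the sources used here, nor is the meaning of ND in the sample names, and both libraries carry the same batch number. The series as titled asks about autocrine IGF-I in mesenchymal progenitors. Igf1 stood at 365 counts per 1000000 counts (CPM) in stromal barcodes of the WT-labelled library and 355 CPM in those of the KO-labelled library, and whether these reads lie in a deleted part is not known. With 1 pool per genotype no difference between the libraries has a replicate check, so no test was made and every interval below covers counting error alone.

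CXC chemokines are named for a pair of cysteines set apart by another residue near the start of the mature protein. Cxcl1, Cxcl2 and Cxcl5 bind the receptor Cxcr2 and draw neutrophils, whereas Cxcl9 and Cxcl10 are induced by interferons and bind Cxcr3 on T and NK cells. Cxcl12 signals through Cxcr4 and is scavenged by Ackr3, Cxcl13 brings in B cells through Cxcr5, and Cxcl16 is made as a membrane-anchored protein that binds Cxcr6. Cxcl14 is made by fibroblasts and epithelia, and its receptor is less settled. In muscle, the fibro-adipogenic progenitors are resident fibroblast-like cells that make many of these factors.

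The 9 genes lie on 4 chromosomes, and 6 of them are on chromosome 5 (positions on GRCm38 from GENCODE M21). Cxcl5 (chr5:90759360-90761624, plus strand), Cxcl1 (chr5:90891241-90893115, plus strand) and Cxcl2 (chr5:90903871-90905938, plus strand) form a neutrophil-attracting cluster in which 10755 bases separate Cxcl1 from Cxcl2. Cxcl9 (chr5:92321347-92328079) and Cxcl10 (chr5:92346638-92348889) are both on the minus strand with 18558 bases between them. Cxcl13 (chr5:95956951-95961068, plus strand) lies further along the chromosome. Cxcl12 is at chr6:117168535-117181367 on the plus strand, Cxcl14 at chr13:56288643-56296551 and Cxcl16 at chr11:70453983-70459984, both on the minus strand.

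The promoters of both neighbour pairs are shown because Cxcl1 with Cxcl2, and Cxcl9 with Cxcl10, are the neighbours whose levels are set side by side below. Each window holds the 250 bases before the RefSeq start of the gene on GRCm38.p6, written 5′ to 3′ on the gene's own strand. Capitals mark matches on either strand to an NF-kB-type site or to the core of the interferon-stimulated response element, both searched as 10 letters of which 8 are fixed. The windows are chr5:90890995-90891244 (plus) for Cxcl1, chr5:90903649-90903898 (plus) for Cxcl2, chr5:92328080-92328329 (minus) for Cxcl9 and chr5:92348890-92349139 (minus) for Cxcl10.
Cxcl1: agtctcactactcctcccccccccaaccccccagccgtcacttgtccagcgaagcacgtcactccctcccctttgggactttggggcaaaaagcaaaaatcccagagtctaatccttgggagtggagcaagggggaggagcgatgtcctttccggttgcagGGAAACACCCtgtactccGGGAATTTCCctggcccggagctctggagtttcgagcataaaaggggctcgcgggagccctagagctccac
Cxcl2: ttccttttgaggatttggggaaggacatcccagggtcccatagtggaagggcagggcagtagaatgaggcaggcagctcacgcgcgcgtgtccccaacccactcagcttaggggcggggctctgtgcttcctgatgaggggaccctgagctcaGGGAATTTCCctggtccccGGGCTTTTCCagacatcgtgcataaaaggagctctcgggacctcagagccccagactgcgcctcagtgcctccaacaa
Cxcl9: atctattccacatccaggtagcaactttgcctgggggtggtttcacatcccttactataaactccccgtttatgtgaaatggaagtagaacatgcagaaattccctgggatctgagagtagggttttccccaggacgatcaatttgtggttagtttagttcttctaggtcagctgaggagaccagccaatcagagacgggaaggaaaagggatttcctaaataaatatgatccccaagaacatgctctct
Cxcl10: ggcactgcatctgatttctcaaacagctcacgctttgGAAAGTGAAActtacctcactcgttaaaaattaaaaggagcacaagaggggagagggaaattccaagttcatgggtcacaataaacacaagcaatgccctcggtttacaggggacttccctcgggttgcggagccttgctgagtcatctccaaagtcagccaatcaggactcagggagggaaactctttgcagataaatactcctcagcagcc
The windows of Cxcl1 and Cxcl2 each hold 2 matches to the NF-kB-type site, at -89 to -80 (minus strand) and -71 to -62 in Cxcl1 and at -97 to -88 and -78 to -69 in Cxcl2, counted back from the start. That motif was found in 1.412% of 32851 promoter windows of the same length. The interferon-stimulated core was found once in Cxcl10 (-213 to -204) and once in Cxcl14 (-172 to -163), against 2.977% of all windows. Windows were matched for 7 of the 9 members, and neither motif was in those of Cxcl9, Cxcl12 or Cxcl13. A match is a run of letters and not a measured binding site.

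Of 11360 barcodes in the WT-labelled library 10272 were kept, with a median of 2953.5 unique molecular identifiers (UMIs, counted transcripts), and of 19531 in the KO-labelled library 18554 were kept, with a median of 4258.5. The labels name fibro-adipogenic progenitors (FAPs), but the gates placed 1840 and 1100 barcodes in a stromal class and more in an endothelial class (3113 and 7465), and all 9 stromal and all 10 endothelial markers were detected in their own class. The other classes were mural (1313 and 1877), myogenic (568 and 675), glial (289 and 402), myeloid (318 and 476), T or NK (106 and 117), B (91 and 58), myofibre (484 and 769) and perineurial (87 and 71). Stromal barcodes had medians of 5457 and 11030 UMIs, so shares of barcodes with a UMI are also given after thinning to 2000 UMIs. The libraries shared 61 barcodes. The mix of stromal states differed: the G0s2/Mme state held 36.1% of stromal barcodes in the WT-labelled library and 16.7% in the KO-labelled library, and the F2rl1/Thbs1 state 0.435% and 18.1%. Myeloid barcodes differed as well, with 41.8% and 13.2% in the macrophage state and 11.3% and 38.0% in the neutrophil state. What these mixes, the depth and free RNA add to the differences below was not tested beyond the values given.

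Each chemokine had its own set of source cells, and the class in which its CPM was highest was the same in both libraries for 7 of the 9, leaving aside 2 and 5 erythroid barcodes. Stromal barcodes were highest for Cxcl1, Cxcl5, Cxcl13 and Cxcl14 and myeloid barcodes for Cxcl2, Cxcl10 and Cxcl16. Cxcl12 was highest in mural barcodes of the WT-labelled library (708 CPM, against 695 CPM in endothelial barcodes, with intervals that overlap) and in endothelial barcodes of the KO-labelled library (554 against 511 CPM). The stromal Cxcl5 level of the KO-labelled library, 24.6 CPM, had an interval that overlaps the perineurial 21.05 CPM, which came from 10 UMIs. Cxcl9 was highest in perineurial barcodes of the WT-labelled library, where all 83 UMIs came from 1 barcode, and in endothelial barcodes of the KO-labelled library, whose 26.4 CPM (24.8 to 28.1) overlaps the myeloid 22.99 CPM (18.8 to 27.8). In T or NK and B barcodes no member exceeded 17.7 CPM in either library.

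**Figure D1:**
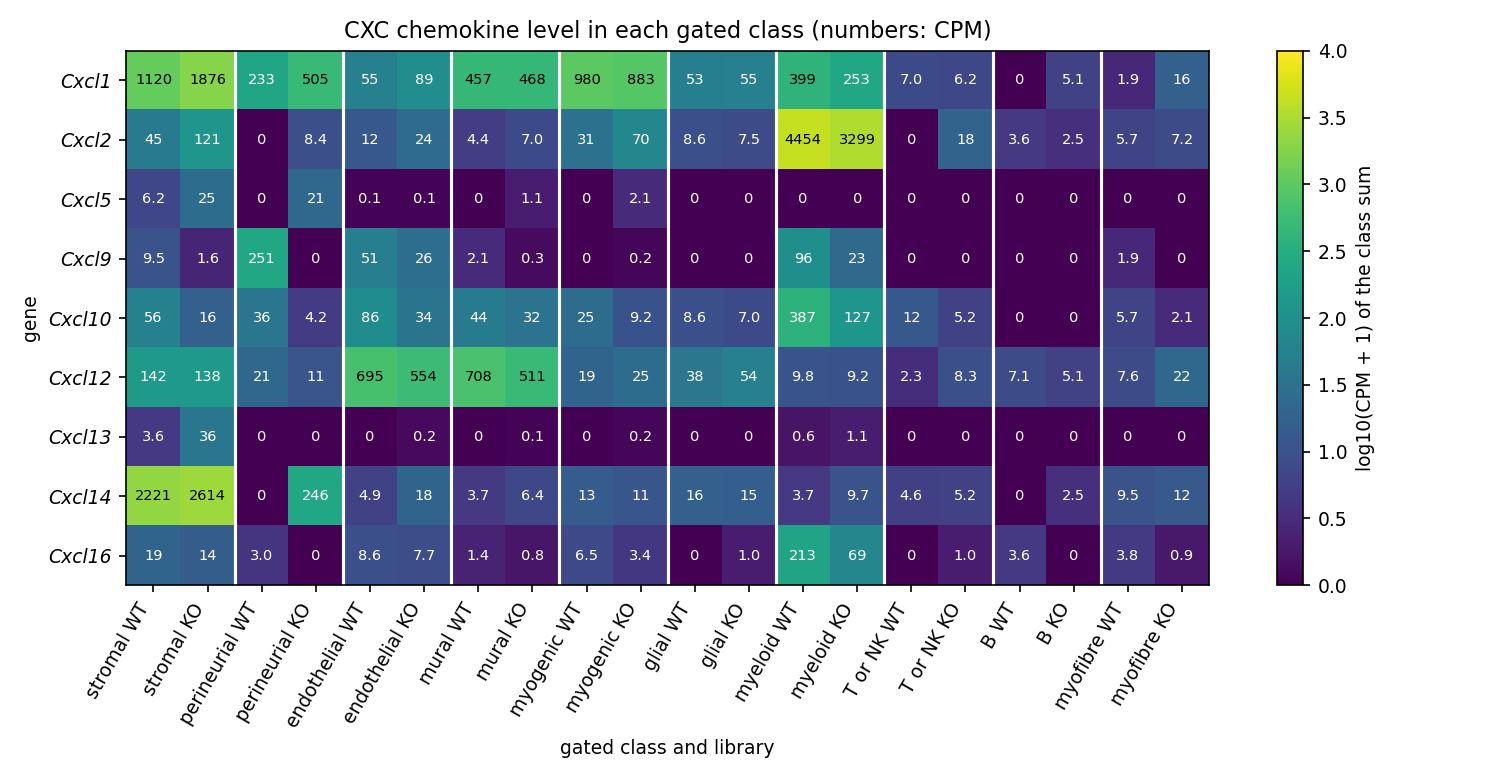
CPM of the class sum for the 9 chemokines (rows) in 10 gated classes of each library (columns), coloured on a log10(CPM + 1) scale with the CPM printed in each cell. Cxcl14 and Cxcl1 are highest in stromal columns, Cxcl2 in myeloid columns and Cxcl12 in endothelial and mural columns, while the lymphoid columns hold at most 17.7 CPM.

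Between the libraries, genes were compared where a class reached at least 20 CPM in 1 library and 100 UMIs over both, and a 2-fold ratio was used as the size rule. A gene could thus pass through the library where it was higher. Stromal Cxcl5, Cxcl10 and Cxcl13, endothelial Cxcl2 and myogenic Cxcl10 reached the CPM floor in that library only. In smaller groups such cases included arterial Cxcl2, pericyte Cxcl10, perineurial Cxcl14 and macrophage Cxcl9. They also included Cxcl5 and Cxcl13 of stromal and Cxcl14 of endothelial barcodes of no named state. Shares over all genes were taken under the same floors, and the counts of members are descriptive. In stromal barcodes 7 members passed these floors and 4 were at least 2-fold apart, against 5.24% of 7141 genes: Cxcl2, Cxcl5 and Cxcl13 were higher in the KO-labelled library (3.16% of genes were) and Cxcl10 was lower (2.07% of genes were). In endothelial barcodes it was 2 of 5 members, Cxcl2 higher and Cxcl10 lower, against 1.86% of 6662 genes. In myogenic barcodes it was 2 of 4, again Cxcl2 higher and Cxcl10 lower, against 5.79% of 6325 genes. In myeloid barcodes it was 3 of 5, with Cxcl9, Cxcl10 and Cxcl16 lower, against 11.5% of 6147 genes. None of 3 mural members (1.42% of 7055 genes) and none of 2 glial members (1.38% of 5272 genes) was 2-fold apart. Several of these counts rest on few barcodes, as described gene by gene below.

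**Figure D2:**
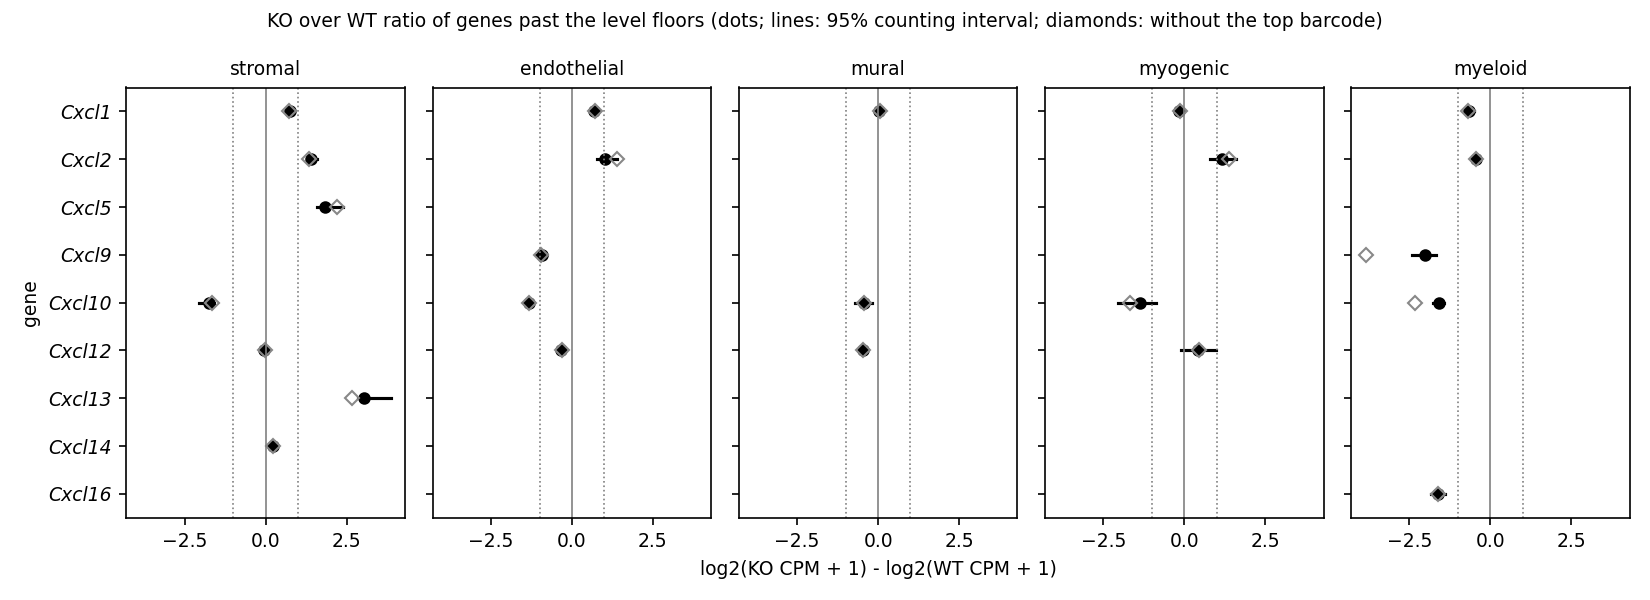
KO-labelled over WT-labelled ratios, as log2(CPM + 1) differences, for members past the floors in 5 classes. Dots are the ratios, lines their 95% counting intervals, diamonds the ratios without the barcode holding the most UMIs in each library, and dotted lines mark 2-fold. Cxcl10 lies left of 0 in all 5 classes, and the myeloid diamonds of Cxcl9 and Cxcl10 lie far from their dots.

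Cxcl1 (ENSMUSG00000029380), a neutrophil chemoattractant, was a transcript of stromal, satellite and mural cells. In stromal barcodes it stood at 1120.5 CPM (1100.4 to 1141) in the WT-labelled library and 1876 CPM (1852 to 1899.8) in the KO-labelled library, a log2 ratio of 0.74 (0.71 to 0.78). Myogenic barcodes came next, at 979.7 and 883 CPM (log2 -0.15). Mural barcodes held 457 and 468 CPM, and myeloid barcodes 399 and 253 CPM. Endothelial barcodes held 54.7 and 89.3 CPM, and glial barcodes 52.7 and 54.7 CPM, which overlap the endothelial interval in the WT-labelled library alone. Between the libraries the stromal level differed by 1.67-fold, whereas the mural intervals (437 to 478 and 456 to 480 CPM) overlapped. Stromal barcodes held 62.7% and 50.9% of all Cxcl1 UMIs of their library.

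Within the stroma Cxcl1 was widespread but uneven. The tenocyte state, the fibroblasts of tendon, was lowest at 134 and 193 CPM. The Prg4/Cilp state held 555 and 664 CPM, the Dpp4/Pi16 state 826 and 1909 CPM and the G0s2/Mme state 1642 and 2410 CPM (log2 0.55). The F2rl1/Thbs1 state of the KO-labelled library held 2690 CPM in 199 barcodes, and its 8 barcodes in the WT-labelled library 5202 CPM with 57.5% of the UMIs in 1 barcode. The 21 barcodes of the Angptl7/Tenm2 state of the WT-labelled library held 3371 CPM. Stromal barcodes of no named state held 955 and 2111 CPM (log2 1.14). Of their 6 members past the floors 4 were 2-fold higher in the KO-labelled library, against 3.61% of 7101 genes: Cxcl1, Cxcl5, Cxcl13 and Cxcl14. Cxcl5 and Cxcl13 reached the CPM floor in that library only and were held by few barcodes. An average with equal weight took the tenocyte, Dpp4/Pi16, G0s2/Mme and Prg4/Cilp states and the barcodes of no named state. On it the stromal log2 ratio of Cxcl1 was 0.82. The F2rl1/Thbs1, Angptl7/Tenm2, Sbspon/Coch/Lef1 and Dlk1 states, with few barcodes in the WT-labelled library, were left out of it.

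A typical stromal barcode held little Cxcl1 and a few held much. The median was 1 UMI and the 90th percentile 17 UMIs in the WT-labelled library, and 2 and 70.1 UMIs in the KO-labelled library, with maxima of 187 and 583. At least 1 UMI was found in 50.3% and 61.5% of stromal barcodes, or 41.2% and 48.3% at 2000 UMIs each. In T or NK barcodes, with medians of 3710 and 8102 UMIs, the shares were 2.83% and 4.27%, or 3 of 100 and 0 of 114 after thinning. In endothelial barcodes the share was 8.48% in the WT-labelled library and 18.2% in the KO-labelled library, but 7.73% and 8.92% after thinning, so most of that gap was not seen at equal depth. Thinning left out the barcodes under 2000 UMIs, 1199 of 3113 and 1341 of 7465 endothelial ones, so thinned and unthinned shares are over different sets of barcodes. The stromal marker Dcn stood at 46.8 and 107 CPM in endothelial barcodes, and its part in their Cxcl1 was not tested.

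Vascular and myeloid states were set apart for Cxcl1. Mural barcodes of no named state were the richest mural part, at 1502.5 CPM in 99 barcodes and 1099 CPM in 186 (log2 -0.45, and -1.07 with the strict filter), from 407 and 976 UMIs. Smooth muscle barcodes held 489 and 574 CPM and pericytes 268 and 281 CPM. Arterial barcodes held 51.0 and 106 CPM (log2 1.04), and here 2 of 3 members past the floors, Cxcl1 and Cxcl2, were 2-fold higher in the KO-labelled library, against 0.581% of 6365 genes. Arterial Cxcl2 reached the CPM floor in the KO-labelled library only. This Cxcl1 ratio sat at the 2-fold line and was below it under several settings, down to 0.86 with thinning. Macrophage-state barcodes held 652 CPM (592 to 718) and 1509 CPM (1413 to 1609), a log2 ratio of 1.21 that was 0.89 with a looser gate. Myeloid barcodes of no named state went the other way, at 327 and 100.04 CPM from 196 UMIs in 10 barcodes and 92 UMIs. In perineurial barcodes 2 members past the floors were 2-fold higher in the KO-labelled library, against 5.04% of 1707 genes: Cxcl1 at 233 and 505 CPM, with 42.1% of the UMIs of the KO-labelled library in 1 barcode, and Cxcl14, with 114 of its 117 UMIs in 1 barcode. Without the top barcode of each library the perineurial log2 ratio of Cxcl1, 1.12, was 0.79 and below 2-fold. The summed stromal markers stood at 14414 and 13636 CPM in perineurial barcodes, whose gate allows them, against 31415 and 24450 CPM in stromal barcodes, and the part of stromal RNA in perineurial Cxcl1 was not tested.

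**Figure D3:**
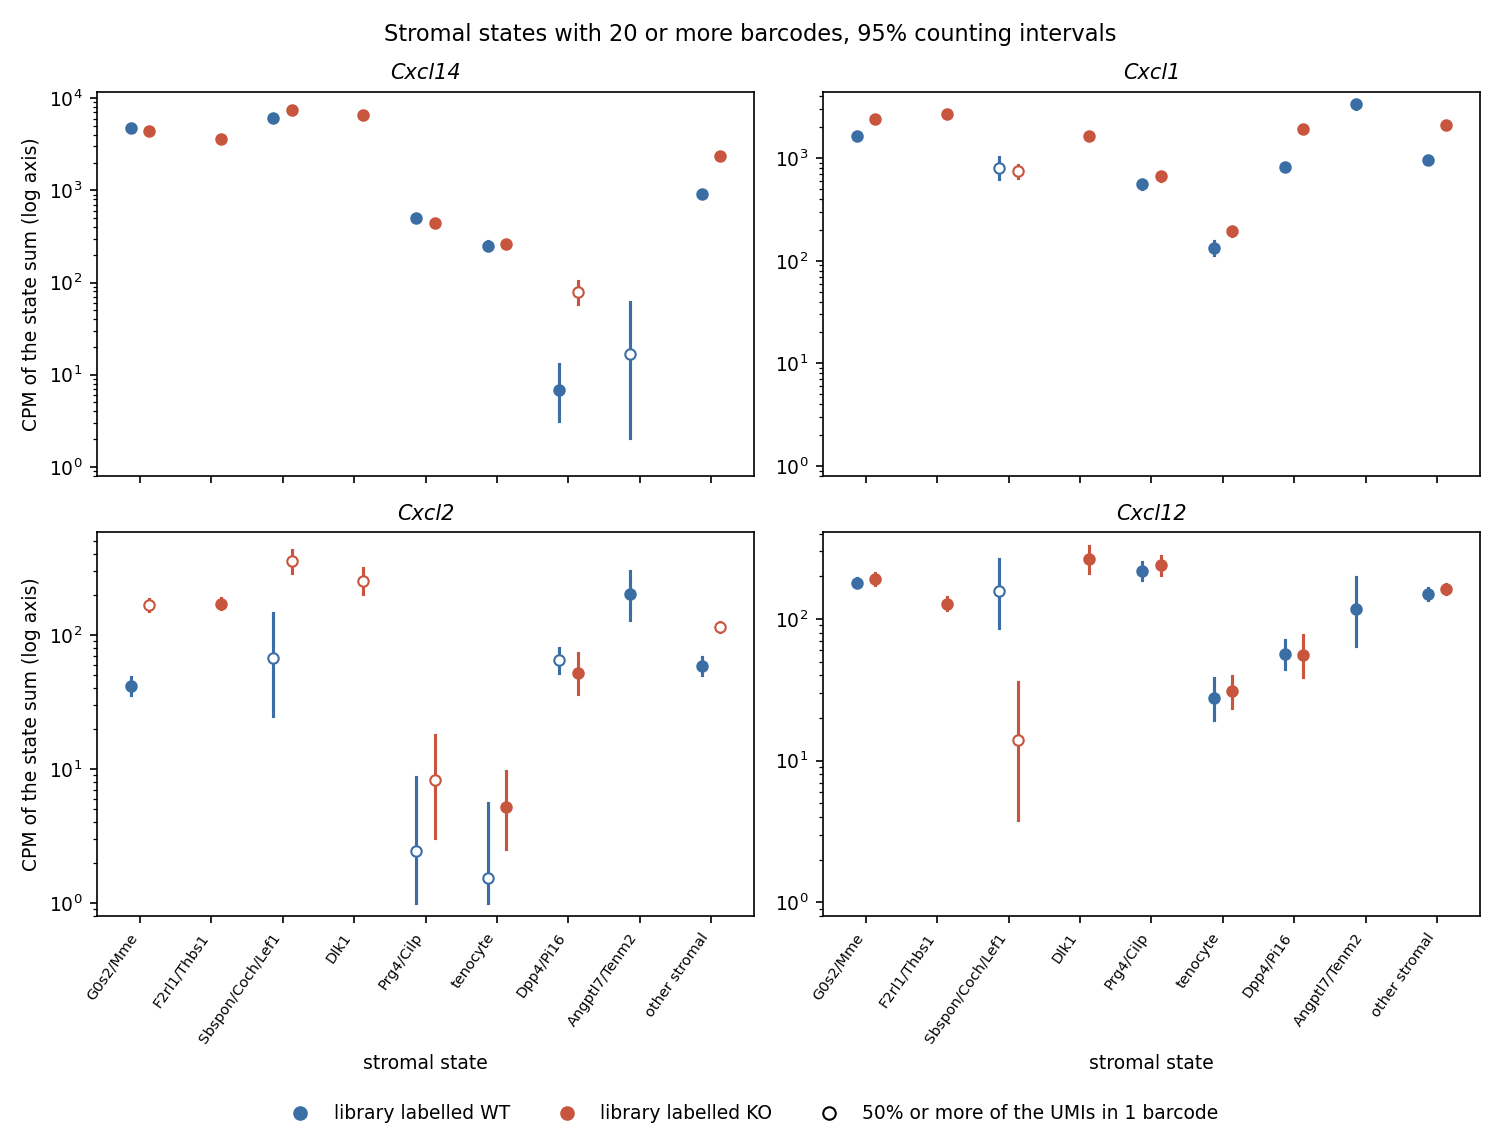
CPM of Cxcl14, Cxcl1, Cxcl2 and Cxcl12 (log axes) in stromal states with at least 20 barcodes, blue for the WT-labelled library and red for the KO-labelled library, with 95% counting intervals and open points where 1 barcode holds at least 50% of the UMIs. Cxcl14 spans from 7407 CPM in the Sbspon/Coch/Lef1 state to 6.82 CPM in the Dpp4/Pi16 state, whereas Cxcl12 lies between 27.8 and 264 CPM wherever the points are closed.

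Cxcl2 (ENSMUSG00000058427), the neighbour of Cxcl1, was above all a macrophage transcript. Myeloid barcodes held 4454 CPM (4352 to 4557) in the WT-labelled library and 3299 CPM (3247 to 3352) in the KO-labelled library, with 83.4% and 70.5% of all Cxcl2 UMIs. Within them the macrophage state held 8603 and 15524 CPM, with a UMI in 85.7% and 90.5% of barcodes and medians of 22 and 97 UMIs per barcode. Neutrophil-state barcodes held 1295 and 2307 CPM (log2 0.83), and the log2 ratio of the macrophage state was 0.85. The neutrophil value rests on 36 barcodes of the WT-labelled library, of which 13 held a Cxcl2 UMI, with at most 34 in 1 barcode. The class as a whole was lower in the KO-labelled library (log2 -0.43) although both the macrophage and the neutrophil state were higher there, and the macrophage state was a smaller part of that class. Myeloid barcodes of no named state were lower there (log2 -0.83, and from -0.97 to 0.20 under the alternatives). What each part adds to the class ratio was not tested. Monocyte-state barcodes held 1616 CPM, 83.6% of it in 1 barcode, and 1174 CPM.

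Outside the myeloid class Cxcl2 was sparse and concentrated. Stromal barcodes held 45.3 CPM (41.4 to 49.6) and 121 CPM (116 to 128), a log2 ratio of 1.40, with a UMI in 2.77% and 7.64% of barcodes, or 1.39% and 4.38% after thinning. In T or NK barcodes the thinned shares were 0 of 100 and 2 of 114. In each library 50% of the stromal UMIs lay in 5 and 4 barcodes. Within the G0s2/Mme state, where Cxcl2 alone among 6 members was 2-fold apart (2.74% of 7011 genes were), it stood at 41.7 and 167 CPM with 60.2% of the latter in 1 barcode, and the log2 ratio of 1.98 was 0.72 without the barcodes of highest Scrublet score. Endothelial barcodes held 11.5 and 24.2 CPM, and the log2 ratio of 1.01 was 0.49 with the strict barcode filter and 0.62 with a stricter gate. Arterial barcodes held 7.88 and 34.1 CPM (log2 1.98, and 0.39 with a looser gate). Myogenic barcodes held 30.6 and 69.9 CPM (log2 1.16), with 50% of the UMIs in 2 and 4 barcodes.

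The same barcodes tended to hold both neighbours in the stromal class, the macrophage state and the endothelial class. A Cxcl2 UMI was found in 5.08% of Cxcl1-positive and 0.438% of Cxcl1-negative stromal barcodes of the WT-labelled library, and in 9.75% and 4.26% of those of the KO-labelled library. In macrophages it was found in 97.5% against 80.6%, and in 27 of 27 against 83.3%. In endothelial barcodes it was 6.06% against 0.702%, and 17.8% against 3.46%. Other groups went the other way, such as neutrophil-state barcodes of the KO-labelled library (66.7% against 73.3%) and glial barcodes of the WT-labelled library (0% against 2.26%). Deeper barcodes hold more of every gene, so these shares describe joint detection and the part that depth plays in them was not tested.

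Cxcl5 (ENSMUSG00000029371), the third neutrophil attractant of the cluster, was rare. Stromal barcodes held 66 UMIs in 10 barcodes of the WT-labelled library and 316 UMIs in 21 barcodes of the KO-labelled library, or 6.23 and 24.6 CPM (log2 1.82, and 2.19 without the top barcodes). Of the stromal UMIs 45.5% and 22.8% lay in 1 barcode. In the WT-labelled library 54 of the 66 UMIs were in the G0s2/Mme state, whereas in the KO-labelled library 227 of the 316 were in barcodes of no named state. Myeloid barcodes held no Cxcl5 UMI among 318 and 476 barcodes, where a limit of 3 counts puts the share of barcodes at 0.943% and 0.63% and the exact upper bounds are 1.15% and 0.772%.

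The interferon-linked pair came next. Cxcl9 (ENSMUSG00000029417), a T cell attractant, was mainly endothelial: 47.9% of its UMIs in the WT-labelled library and 74.8% in the KO-labelled library lay in endothelial barcodes, at 51.3 CPM (46.7 to 56.2) and 26.4 CPM (24.8 to 28.1). The log2 ratio of -0.93 was just short of 2-fold. Venous barcodes held 131 and 68.05 CPM (log2 -0.93) and capillary barcodes 68.9 and 29.9 CPM (log2 -1.18), the latter the 1 member of 3 that was 2-fold apart there (2.2% of 6690 genes were). Arterial barcodes held 1.13 and 1.30 CPM. In interferon-responding endothelial barcodes, gated on Ifit and related genes, the levels were 127 CPM (93.2 to 169) and 162 CPM (128 to 204), with overlapping intervals, and none of 3 members was 2-fold apart (1.23% of 1793 genes were). At equal depth 6.32% and 3.71% of endothelial barcodes held a Cxcl9 UMI, against 7.13% and 6.01% unthinned, and no T or NK barcode held one (medians 3710 and 8102 UMIs).

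Cxcl9 in myeloid cells came down to single barcodes. The class held 95.8 and 22.99 CPM (log2 -2.01), but 63.7% of the UMIs of the WT-labelled library and 93.5% of those of the KO-labelled library lay in 1 barcode each. The log2 ratio was -3.84 without these barcodes and 2.08 without the barcodes of highest Scrublet score, so its direction depends on few cells. All 100 UMIs of the macrophage state in the WT-labelled library came from 1 barcode, which also held 84 Cxcl10 UMIs, and the macrophage state of the KO-labelled library held no Cxcl9 UMI. The top barcode of the KO-labelled library was in the dendritic state, held 100 Cxcl9 and 288 Cxcl10 UMIs among 26478 UMIs, and had a UMI of 6 macrophage and 4 dendritic markers.

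Cxcl10 (ENSMUSG00000034855), which attracts the same cells through Cxcr3, was lower in the KO-labelled library in each of the 5 classes where it passed the floors, the mural class staying within 2-fold. Myeloid barcodes held 387 CPM (357 to 418) and 127 CPM (117 to 138). That log2 ratio of -1.59 was -0.62 without the barcodes of highest Scrublet score, and 48.6% of the UMIs of the KO-labelled library lay in 1 barcode. Endothelial barcodes held 86.3 CPM (80.3 to 92.6) and 33.98 CPM (32.1 to 35.9), a log2 ratio of -1.32. Venous barcodes were the richest endothelial state at 538 and 195 CPM (log2 -1.46), where Cxcl10 was the only member of 5 that was 2-fold apart (3.59% of 5491 genes were). Capillary barcodes held only 8.0 and 11.5 CPM, and interferon-responding barcodes 130 and 204 CPM (log2 0.65), both higher in the KO-labelled library but with intervals that overlap.

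Cxcl10 in mural and stromal cells was also uneven. Pericytes held 42.8 and 6.75 CPM (log2 -2.50; -2.03 without the top barcodes), the 1 member of 3 past 2-fold there (3.09% of 7150 genes were), whereas smooth muscle held 36.4 and 44.4 CPM (0 of 3 members past 2-fold, against 0.923% of 6720 genes). Stromal barcodes held 55.9 and 15.8 CPM (log2 -1.76). The ratio was -0.85 both with a looser gate and with equal weight over the stromal states averaged for Cxcl1. The G0s2/Mme state held 100.7 and 53.95 CPM, with 30% of the former in 1 barcode. Myogenic barcodes held 25.1 and 9.20 CPM (log2 -1.35) from 54 and 48 UMIs. Macrophage-state barcodes held 476 and 258 CPM, with 66.2% of the latter in 1 barcode.

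Joint detection of Cxcl9 and Cxcl10 differed among endothelial states. In venous barcodes a Cxcl10 UMI was found in 79.4% of Cxcl9-positive and 14.3% of Cxcl9-negative barcodes of the WT-labelled library, and in 60% and 12.3% of those of the KO-labelled library. Over all endothelial barcodes the shares were 20.7% against 2.42% and 14.7% against 1.95%. In capillary barcodes they were 3.85% against 0.984% and 5.02% against 1.18%, far below the venous shares. The part of depth was not tested here either.

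**Figure D4:**
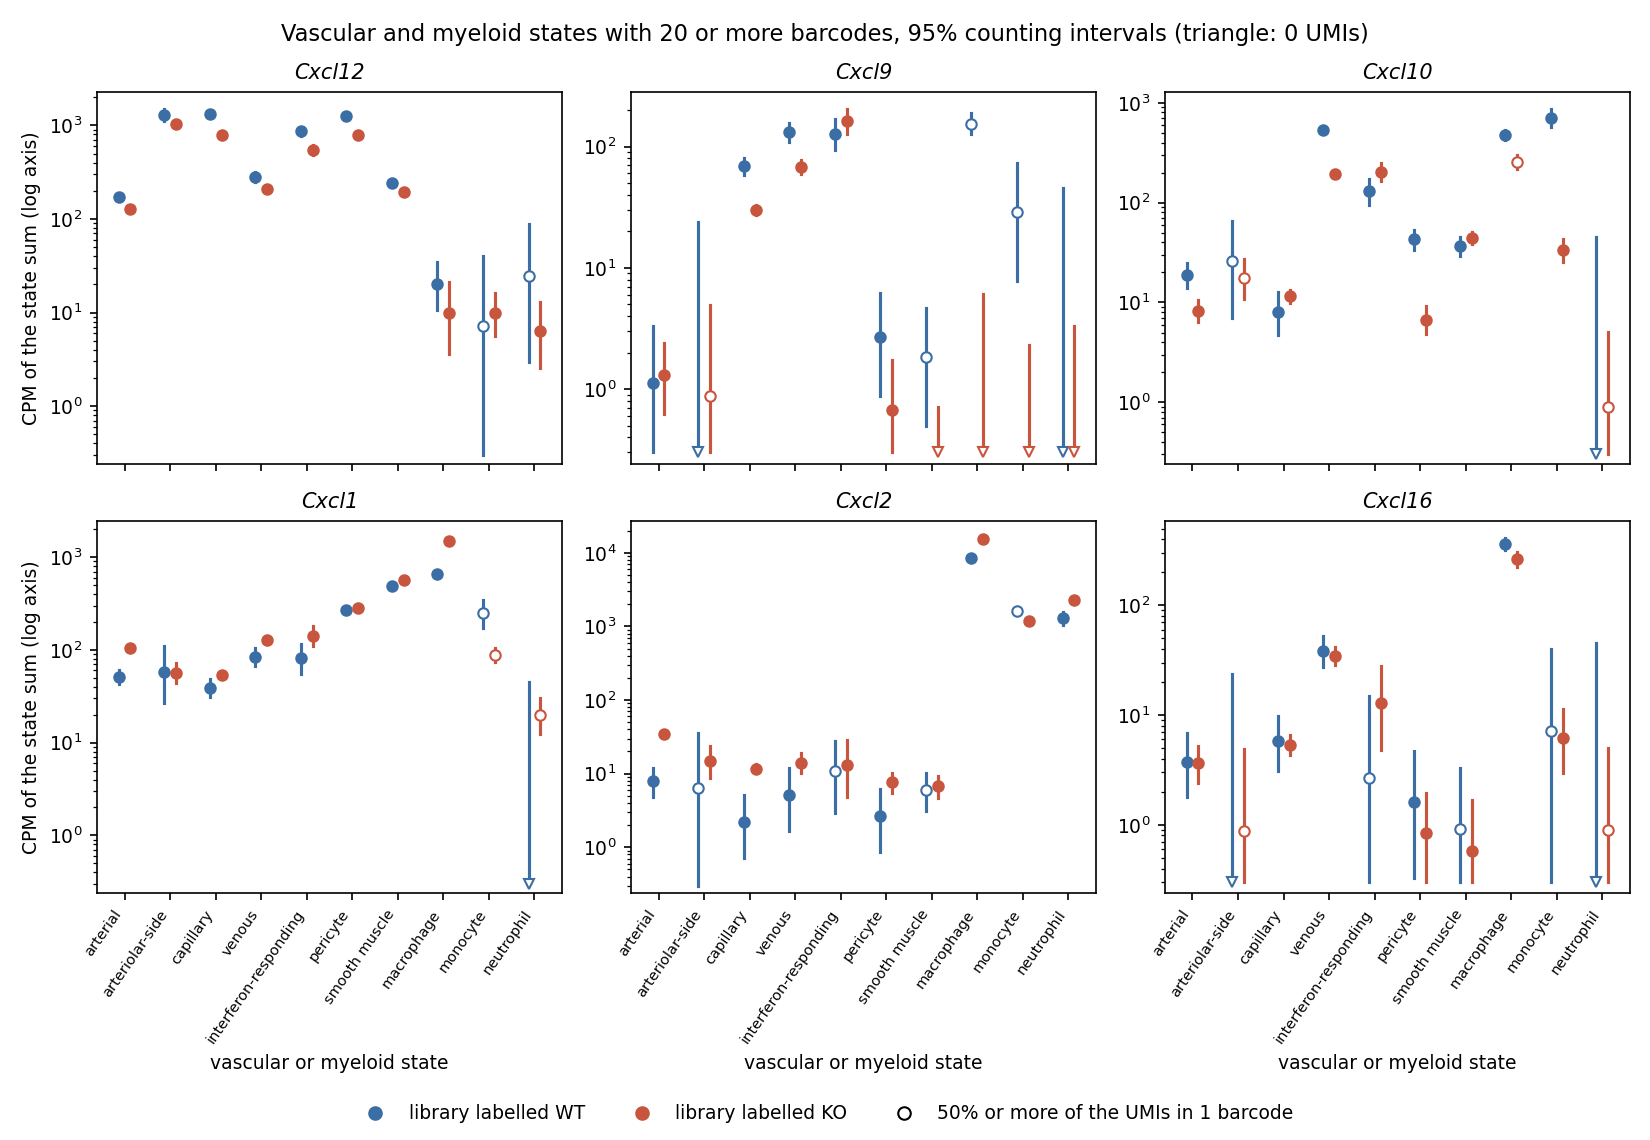
CPM of 6 chemokines (log axes) in endothelial, mural and myeloid states with at least 20 barcodes, blue for the WT-labelled library and red for the KO-labelled library, with 95% counting intervals, open points where 1 barcode holds at least 50% of the UMIs and triangles at 0 UMIs. Cxcl12 is lower in the KO-labelled library in all 5 endothelial states and both mural states, Cxcl10 peaks in venous and myeloid states, and Cxcl2 exceeds 1000 CPM only in the myeloid states.

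Cxcl12 (ENSMUSG00000061353), which retains and guides Cxcr4-bearing cells, was the most widely detected member, with a UMI in 4027 and 9159 barcodes. Endothelial barcodes held 695 CPM (678 to 712) and 554 CPM (547 to 562), a log2 ratio of -0.33 that was -0.18 with thinning. Capillary barcodes held 1316 and 797 CPM (log2 -0.72), arteriolar-side barcodes 1292 and 1033 CPM, interferon-responding barcodes 864 and 543 CPM, venous barcodes 281 and 211 CPM and arterial barcodes 169.6 and 129 CPM. Capillary and arteriolar-side levels had overlapping intervals in the WT-labelled library but not in the KO-labelled library. All 5 endothelial states were lower in the KO-labelled library, and none by 2-fold. Capillary barcodes were 32.7% of endothelial barcodes in the WT-labelled library and 49.4% in the KO-labelled library.

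Mural Cxcl12 followed the same order of sizes. Pericytes, which wrap capillaries, held 1254 and 786 CPM (log2 -0.67), and smooth muscle 244 and 195 CPM (log2 -0.32). Stromal barcodes held 142 CPM (135 to 149.8) and 138 CPM (132 to 145), with overlapping intervals, and the G0s2/Mme state 180 and 193 CPM. Tenocyte-state barcodes held 27.8 and 31.0 CPM and Dpp4/Pi16 barcodes 56.8 and 55.6 CPM. A Cxcl12 UMI was found in 59.5% and 67.0% of endothelial barcodes, or 51.2% and 53.4% after thinning, against 0 of 100 and 2 of 114 thinned T or NK barcodes.

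Cxcl13 (ENSMUSG00000023078), the B cell attractant, was held mostly by few stromal barcodes, with 79.2% and 88.6% of its UMIs in that class. It had 38 UMIs in 11 stromal barcodes of the WT-labelled library and 467 UMIs in 17 of the KO-labelled library, or 3.59 CPM (2.54 to 4.93) and 36.4 CPM (33.1 to 39.8). The log2 ratio was 3.03, and 2.65 without the top barcodes, of which that of the KO-labelled library held 193 UMIs (41.3%). In the WT-labelled library 27 of the 38 UMIs lay in the Dpp4/Pi16 state, a progenitor state of the connective tissue around muscle. The Dpp4/Pi16 state held 20.5 and 136 CPM, the latter 88 UMIs in 5 barcodes, and barcodes of no named state 4.02 and 96.5 CPM.

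Cxcl14 (ENSMUSG00000021508) was a stromal transcript with strong differences among stromal states. Stromal barcodes held 2221 CPM (2193 to 2250) and 2614 CPM (2586 to 2642), a log2 ratio of 0.23, and 91.1% and 78.5% of all Cxcl14 UMIs of their library. The Sbspon/Coch/Lef1 state was highest at 6053 and 7407 CPM, with a UMI in each of its 21 and 32 barcodes. The Dlk1 state held 4522 CPM in 13 barcodes and 6584 CPM in 27, the G0s2/Mme state 4751 and 4370 CPM (log2 -0.12), and the F2rl1/Thbs1 state of the KO-labelled library 3570 CPM. Prg4/Cilp barcodes held 499.8 and 443 CPM and tenocyte barcodes 251 and 259 CPM, each pair with overlapping intervals. The Dpp4/Pi16 state was nearly without Cxcl14, at 6.82 CPM and at 78.8 CPM with 96.1% of it in 1 barcode. Barcodes of no named state held 905 and 2340 CPM (log2 1.37). In the tenocyte state none of 2 members past the floors was 2-fold apart (2.87% of 5084 genes were), and in the Prg4/Cilp state none of 3 (5.67% of 2892 genes were).

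Over all kept barcodes the order of the libraries for Cxcl14 was the reverse of that in the stroma, at 695 CPM in the WT-labelled library and 425 CPM in the KO-labelled library, where stromal barcodes were 17.9% and 5.93% of the kept. The G0s2/Mme state alone held 74.9% of the Cxcl14 UMIs of the WT-labelled library and 21.8% of those of the KO-labelled library. At least 1 UMI was found in 55.1% and 63.5% of stromal barcodes, or 48.1% and 52.4% after thinning. In endothelial barcodes, at 4.93 and 18.2 CPM, the shares were 1.28% and 7.07%, or 0.784% and 2.56% after thinning, and in T or NK barcodes 1.89% and 4.27%, or 0 of 100 and 2 of 114. The thinned endothelial shares lay within the counting intervals of those in T or NK barcodes (0 to 3.62% and 0.213 to 6.19%). Endothelial barcodes of no named state held 7.58 CPM from 19 UMIs in the WT-labelled library and 44.5 CPM in the KO-labelled library, beside Dcn, a stromal marker, at 56.6 and 264 CPM.

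Cxcl16 (ENSMUSG00000018920), which also acts as a scavenger receptor, was highest in myeloid barcodes and, among these, in the macrophage and dendritic states. It was not confined to them, since most of its UMIs in either library lay outside the myeloid class. More stromal than myeloid barcodes held a Cxcl16 UMI in both libraries, and more endothelial than myeloid ones did in the KO-labelled library alone. Myeloid barcodes held 213 CPM (191 to 236.5) and 69.0 CPM (61.6 to 76.9), a log2 ratio of -1.61. Within the macrophage state it was 362 CPM (317 to 411) and 263 CPM (223 to 307), a log2 ratio of -0.46, with a UMI in 68.4% and 68.3% of barcodes. Dendritic-state barcodes held 285 and 284 CPM in 17 and 21 barcodes. Monocyte and neutrophil barcodes held at most 7.15 CPM in either library. The gap of the whole class was thus larger than that within either of its Cxcl16-rich states. The macrophage state was 41.8% and 13.2% of the class, and the dendritic state 5.35% and 4.41%. What these shares add to the gap was not tested. Venous barcodes held 38.5 and 34.7 CPM, above the 5.78 and 5.35 CPM of capillary barcodes, and stromal barcodes 18.7 and 14.3 CPM.

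Among macrophage-state barcodes 5 members passed the floors, and Cxcl1 (higher) and Cxcl9 (lower, from 1 barcode) were 2-fold apart, against 3.82% of 2305 genes. Among myeloid barcodes of no named state it was 2 of 3, with Cxcl1 and Cxcl10 lower, against 6.21% of 3029 genes. Both of those last ratios changed sign with a looser gate, to 1.28 and 1.63. Among endothelial barcodes of no named state it was 3 of 6, with Cxcl1 and Cxcl14 higher and Cxcl9 lower, against 2.75% of 6804 genes. With the strict barcode filter the Cxcl1 and Cxcl14 ratios of these barcodes were 0.36 and 0.65. Their Cxcl9 ratio of -1.05 was -0.94 with a pseudocount of 5 CPM, short of 2-fold.

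Receptor transcripts were held by leukocytes and, for some receptors, by stromal and endothelial cells. Cxcr2, the receptor of Cxcl1, Cxcl2 and Cxcl5, stood at 1726 and 2246 CPM in neutrophil-state barcodes. In the whole myeloid class it was at 120 and 599 CPM (log2 2.32), the 1 of 2 receptors past the floors that was 2-fold apart against 11.5% of 6147 genes, and neutrophils were 11.3% and 38.0% of that class. Cxcr4, the receptor of Cxcl12, was at 292 and 254 CPM in B barcodes, 153 and 120 CPM in T or NK barcodes and 145 and 77.2 CPM in macrophages. Capillary barcodes, which were rich in Cxcl12, held 54.2 and 17.9 CPM of Cxcr4 (log2 -1.55). Ackr3, which removes Cxcl12, was at 324 and 184 CPM in stromal barcodes (log2 -0.81), 1205 and 1070.2 CPM in the Dpp4/Pi16 state and 254 and 189 CPM in capillary barcodes.

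Lymphocyte receptors were kept to lymphocytes. Cxcr5, the receptor of Cxcl13, was at 224 and 223 CPM in B barcodes, and Cxcr6, the receptor of Cxcl16, at 76.5 and 132 CPM in T or NK barcodes. Cxcr3 had 12 and 24 UMIs there (27.8 and 24.96 CPM). Ackr1, which binds many chemokines on venules, was at 335 and 390 CPM in venous barcodes. Of the 8 receptors, 1 passed the floors in stromal, 3 in endothelial, 1 in mural and 2 in myogenic barcodes. None of these was 2-fold apart, against 5.24%, 1.86%, 1.42% and 5.79% of all genes there.

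Other CXC ligands were few. Pf4, a platelet factor also made by macrophages, was at 1993 and 1985 CPM in the macrophage state, yet at 804 and 261 CPM over the myeloid class. Cxcl3, a further Cxcr2 ligand, was at 46.4 and 158 CPM in macrophages (log2 1.74), with 60% and 34.4% of the UMIs in 1 barcode. Cxcl11, the third Cxcr3 ligand, had 77 UMIs in the myeloid class of the KO-labelled library, all in 1 dendritic-state barcode, and none in the WT-labelled library.

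Proteases that shed or trim chemokines were read in the same way. Adam10 and Adam17, which can release Cxcl16 from the membrane, had stromal log2 ratios of -0.16 and 0.22, endothelial ratios of -0.14 and 0.14 and myeloid ratios of 0.07 and -0.20. Of 5 such genes 4 passed the floors in stromal barcodes and none was 2-fold apart, against 5.24% of 7141 genes. Mmp2, among these 4, is itself a marker of the stromal gate and stood at 611.5 and 448.6 CPM in stromal barcodes (log2 -0.45). Dpp4, which trims several CXC ligands and is a marker of a stromal gate, was at 138 and 74.6 CPM there (log2 -0.88). Mmp9, a marker of the neutrophil gate, was at 48.8 and 156 CPM in myeloid barcodes (log2 1.65), the 1 of 4 past the floors that was 2-fold apart there, against 11.5% of genes.

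The NF-kB-linked list of early genes, which share their inducers with Cxcl1 and Cxcl2, was read beside them. All 14 genes passed the floors in stromal barcodes and 3 were 2-fold higher in the KO-labelled library, against 3.16% of genes: Icam1 (61.6 and 131 CPM), an adhesion molecule, and the monocyte attractants Ccl2 (70.5 and 570 CPM) and Ccl7 (83.9 and 316 CPM). Their median log2 ratio was 0.58, against 0.03 over all stromal genes. Nfkbia, the inhibitor of NF-kB, had 0.57 and Nfkb1 0.58, while Il6 had -0.22 and Tnfaip3 -0.09. In endothelial barcodes 12 passed and none was 2-fold apart (1.86% of genes were), with a median of 0.12. In the myeloid class Il6 alone of 14 was past 2-fold and lower (135 and 31.4 CPM), against 11.5% of genes past 2-fold. The median there was -0.61, but within the macrophage state the median of 13 genes was 0.16. Ccl2 alone of these 13 was 2-fold apart, and higher (1138 and 2346 CPM), against 3.82% of genes.

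The interferon-gamma-linked list was read beside Cxcl9 and Cxcl10. In endothelial barcodes all 12 genes passed the floors, 1 was 2-fold lower in the KO-labelled library (1.31% of genes were) and the median log2 ratio was -0.80, against 0.01 over all genes. Gbp3, a guanylate-binding protein, was at 87.4 and 34.2 CPM, Gbp2 at 180 and 99.4 CPM, Iigp1 at 1476 and 815 CPM and Cd274, which encodes PD-L1, at 99.7 and 55.3 CPM. Irf1 (-0.06) and Socs1 (0.24) were near 0. In venous barcodes 3 of 11 were 2-fold lower (1.86% of genes were), namely Gbp2, Gbp3 and Psmb9, a subunit of the immunoproteasome, with a median of -0.85. In capillary barcodes 3 of 12 were (1.33% of genes were), with a median of -0.67. In interferon-responding barcodes none of 10 was 2-fold apart either way (1.23% of genes were), with a median of -0.28. In stromal barcodes none of 7 was (5.24% of genes were), with a median of -0.21.

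Likeness between genes was described by the Pearson r of log2(CPM + 1) over 20 points, the 10 classes of each library, which share depth and class makeup. The genes closest to Cxcl1 were Tubb6 (r = 0.95), Cd302 (0.92) and Plagl1 (0.92). Those closest to Cxcl12 were Gng11 (0.94), Sparcl1 (0.93) and Syne1 (0.92), and to Cxcl14 Atp6v0a4 (0.93), Tac1 (0.91) and Slc6a2 (0.91). Cxcl2 and Cxcl16 both had Tlr2 (0.91 and 0.87) and Gm35853 (0.91 and 0.91) among their closest 3, with Nrg1 (0.90) and G530011O06Rik (0.89) as the remaining gene of each. Cxcl5 lay closest to Slc6a2 (0.93), 4930447C04Rik (0.90) and Dio3 (0.89), Cxcl13 to Spink8 (0.97), Mrgprg (0.96) and Zfp804a (0.95), Cxcl9 to Ppfia4 (0.87), Fkbp1b (0.86) and Atox1 (0.86), and Cxcl10 to Dnah12 (0.88), Jdp2 (0.86) and Rin2 (0.86).

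The 9 members fell into widely and narrowly held transcripts. In the WT-labelled library 50% of the Cxcl12 UMIs were held by 780 barcodes, and in the KO-labelled library by 1614. The figures were 187 and 224 barcodes for Cxcl1, 169 and 135 for Cxcl14, and 105 and 126 for Cxcl16. Cxcl2 needed 33 and 38 barcodes, Cxcl10 37 and 32, and Cxcl9 31 and 80. Cxcl5 needed 2 and 4 barcodes and Cxcl13 4 and 2, so their levels describe a handful of cells in each pool.

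**Figure D5:**
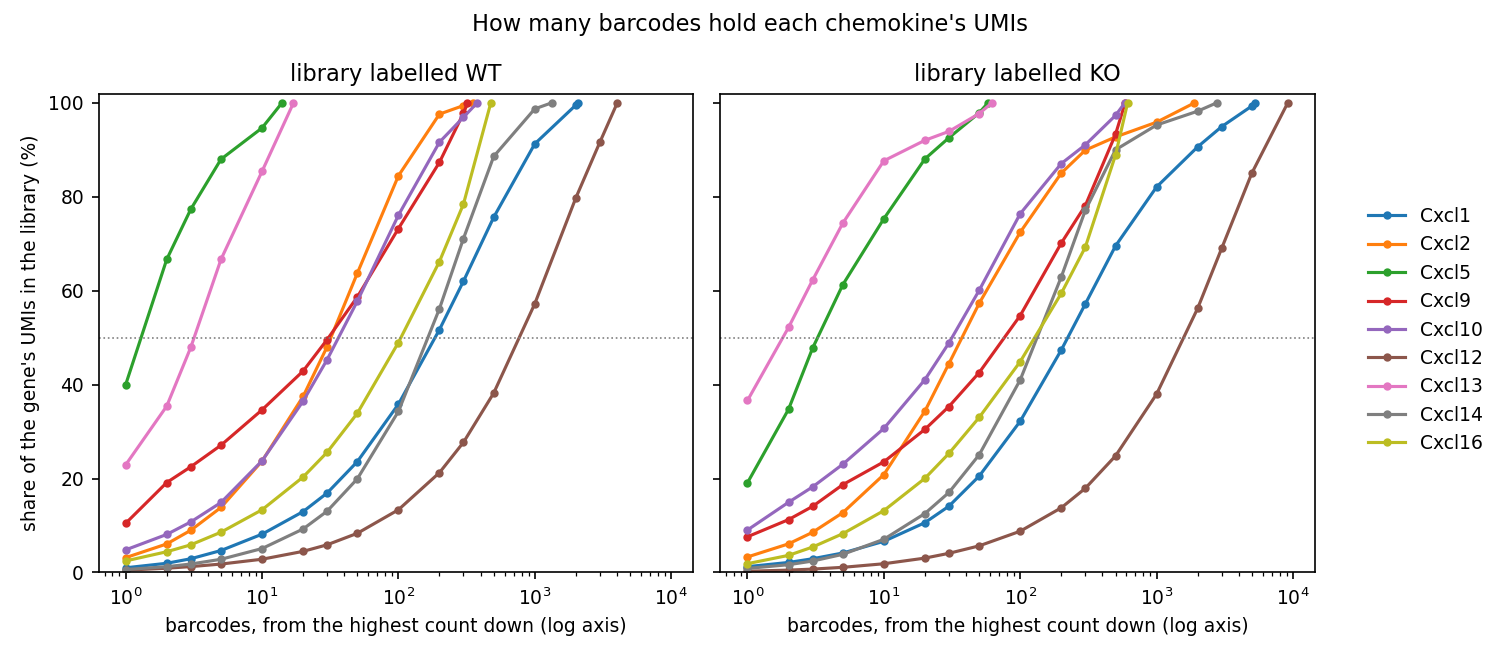
Share of each chemokine's UMIs (vertical, percent) held by the barcodes with the most UMIs of it, counted from the highest down (horizontal, log axis), for the WT-labelled library on the left and the KO-labelled library on the right. The dotted line marks 50%, reached by Cxcl5 within 2 and 4 barcodes and by Cxcl12 within 780 and 1614.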

How the data were processed

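Single-cell transcript counts (10x GEM-X 3′ v4) of 1 WT-labelled and 1 KO-labelled library were used as the authors deposited them, as whole-number UMI counts per gene and barcode, not normalized. The submitters' processing notes name Cell Ranger 9.0.0 and mm10, and per the file headers the WT files came from version 8.0.0 and the KO files from 9.0.0. Barcodes with under 500 genes or over 10% mitochondrial UMIs were left out. Kept barcodes were placed in classes and states by marker gates (at least 3 markers whose share of UMIs reached 0.5 of the class's reference share, with no other class at 0.25 of its own, except that perineurial barcodes could hold stromal markers, and T or NK and B barcodes myeloid markers, at any share, and the stromal or myeloid gate then gave way to them at 0.5), which 79.9% and 70.1% of them passed. UMIs were summed over a class and scaled to CPM of its total, and the kept barcodes held 37168801 and 100601806 UMIs. Levels carry exact Poisson, shares exact Clopper-Pearson and ratios exact conditional binomial 95% intervals, which cover counting error only. The log2 ratios used a pseudocount of 1 CPM, and their intervals none. With 1 library per genotype no test was run, and genotype and library cannot be told apart.

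The 9 members and all lists, gates and rules were chosen with earlier results of these data known. Named beyond the members were genes of the lists of receptors, other CXC ligands, proteases, NF-kB-linked and interferon-gamma-linked genes, and the 3 genes most like each member among those with at least 200 UMIs over both libraries that are no gate marker. The ratio code recovered known changes in simulated Poisson sums of the stromal class. Such sums hold no spread between barcodes or libraries, so this checks the code and not the ratios of members held by few barcodes. Scrublet (scanpy 1.11.5) with its own threshold marked 140 of 10272 and 2 of 18554 barcodes, which is too few to serve, so no doublets were removed, and an alternative chosen after seeing the data left out the 10% with the highest scores. Alternatives were stricter and looser barcode filters and gates, TMM scaling, thinning to 2000 UMIs, leaving out top barcodes, equal weights, other pseudocounts and no floor. Python 3.11.15, numpy 2.4.6, scipy 1.17.1, pandas 2.3.3 and matplotlib 3.10.9 were used.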

Additional observations from a re-analysis of the deposited data

Results flagged for a closer look

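The log2 ratio of Cxcl1 (KO-labelled over WT-labelled library) had opposite signs in parts of the same pools. It was 1.12 in perineurial barcodes, 1.14 in stromal barcodes of no named state, 1.04 in arterial barcodes, 1.19 in endothelial barcodes of no named state and 1.21 in macrophage-state barcodes. All but that of the stromal barcodes fell below 2-fold under some alternative: to 0.79 in perineurial barcodes without the top barcode of each library, to 0.86 in arterial barcodes with thinning, to 0.36 in endothelial barcodes of no named state with the strict filter and to 0.89 in macrophage-state barcodes with a looser gate. In myeloid barcodes of no named state it was -1.70. The difference between these ratios was not tested, since each genotype has 1 library. The last value rests on 196 and 92 UMIs in 10 and 11 barcodes, was -0.79 without the barcodes of highest Scrublet score and 1.28 with a looser gate.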

How the results depend on the processing

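No paired analysis was possible because each genotype has 1 library and no test was run. A ratio of each of the 9 members was taken in the class where its mean CPM over both libraries was highest, leaving aside small classes. Of these 9 ratios, 8 kept their sign and 7 their side of 2-fold over 103 alternative values. For Cxcl9 that class was myeloid, although most of its class UMIs were endothelial. The endothelial Cxcl9 ratio (-0.93) kept its sign, from -1.08 to -0.84, but not its side of 2-fold. Of 75 further ratios with 828 alternative values 52 kept their sign, 51 their side of 2-fold and 2 reversed past it. The stromal Cxcl1 ratio (0.74) was 0.68 with the looser gate, 0.81 with the stricter gate, 0.83 with TMM, 0.62 thinned, 0.66 with equal weight per barcode and 0.82 with equal weight over the larger stromal states. The myeloid Cxcl2 ratio (-0.43) was -0.23, -0.66, -0.31, -0.39 and -0.34 under the first 5 of these and -0.55 without the highest Scrublet scores. Stromal Cxcl5 (1.82) was 1.40 with a pseudocount of 5. Myeloid Cxcl9 (-2.01) was -5.75 with the stricter gate, -3.84 without top barcodes and 2.08 without the highest Scrublet scores. Myeloid Cxcl10 (-1.59) was -2.52, -2.34 and -0.62 under the same settings and -1.93 with equal weight per barcode. Endothelial Cxcl12 (-0.33) was -0.25 with the strict filter, -0.18 thinned, -0.46 with equal weight per barcode and -0.25 without the highest Scrublet scores. Stromal Cxcl13 (3.03) was 2.65 without top barcodes and 2.27 with a pseudocount of 5. Stromal Cxcl14 (0.23) was 0.21 with the looser gate, 0.27 with the stricter gate, 0.32 with TMM, 0.21 thinned and 0.19 without the highest Scrublet scores. Myeloid Cxcl16 (-1.61) was -1.88 with the stricter gate and -1.90 with equal weight per barcode. In myeloid barcodes of no named state the looser gate reversed Cxcl1 to 1.28 and Cxcl10 to 1.63. With no floor beyond 10 UMIs the genes past 2-fold numbered 914 in place of 374 in stromal, 392 in place of 124 in endothelial, 496 in place of 100 in mural, 1342 in place of 366 in myogenic and 1979 in place of 706 in myeloid barcodes, since more genes were compared. For the other changes the cause was not tested. Removing the doublets that Scrublet called could not serve as a comparison, since it called 2 barcodes of the KO-labelled library. Low totals limit Cxcl5 and Cxcl13 most, with 75 and 377 and 48 and 527 UMIs in all.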

Other observations

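Barcodes that passed no gate held part of every member. The shares of a member's UMIs in them were 8.94% and 17.2% for Cxcl1 in the WT-labelled and KO-labelled libraries, 8.80% and 15.9% for Cxcl2, 11% and 16.4% for Cxcl12 and 8.41% and 19.1% for Cxcl14. Their Cxcl1 stood at 257 and 364 CPM and their Cxcl14 at 330 and 365 CPM. The stromal marker Dcn had a UMI in 31.7% and 58.6% of them.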
